A study of Mus musculus with 12 samples.

Results

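The transferase genes of phase II metabolism were followed in the liver of Balb/C mice during the first 6 h after ConA injection. They comprised 3 families, the UDP-glucuronosyltransferases (Ugt), the glutathione S-transferases (Gst) and the sulfotransferases (Sult). A gene was a member if its symbol on the array platform opened with Gst, a class letter and a number, with Ugt and a number, or with Sult and a number, and if it had a probe set that carries no other symbol. Each gene was read from its probe set with the highest mean over all 12 arrays. Of 18193 genes measured, 44 met this rule, namely 11 Ugt, 20 Gst and 13 Sult genes, which are covered by 56 probe sets.

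Phase II enzymes attach a polar group to drugs, steroids, bile acids and reactive products of metabolism, so that these can leave the cell and the body. Ugt enzymes of the endoplasmic reticulum use UDP-glucuronate or another UDP-sugar, Gst enzymes use glutathione, and Sult enzymes of the cytosol take sulfate from the donor PAPS. The liver is the main site of all these reactions, and hepatocytes carry out most of them.

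ConA, a plant lectin that activates T cells and causes an immune-mediated hepatitis in mice, was given through the tail vein at 20 mg/kg. The 1 h, 3 h and 6 h groups were ConA-injected male Balb/C mice without any engineered allele, aged 8 to 10 weeks, with 3 arrays of whole liver RNA in each group. The control group, 3 arrays at 0 h from mice of the same strain, sex and age, is labelled untreated, while the study's methods describe PBS as the negative control. Only the 0 h group served as a control, so an effect of ConA and an effect of the hours that passed cannot be told apart. The labels tie each liver sample to a mouse but do not state whether the replicates were separate experiments, so the p-values measure the spread between these arrays.

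Every value below is a linear signal intensity or a difference of mean log2 signals, taken after signals under 3.04 had been raised to that floor. Standard errors (SE) and adjusted p-values came from limma over all 18193 genes, and a change was called at an adjusted p under 0.05. Each array correlated with at least 1 other at 0.962 to 0.965. The median signal of the arrays ran from 13.7 to 20.4 and was lowest in the 3 h group, where the median log2 change of all genes against the control group was -0.21, compared with 0.08 at 1 h and 0.02 at 6 h. With 3 arrays in a group, precision was limited by their number.

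Hepatocyte markers stayed high. Their summed signal was 59430 to 65040 at 6 h, against 56730 to 60470 in the control group, and of 7 measured 1 was higher and 0 were lower at 6 h. All 9 neutrophil markers measured were higher at 6 h, with a summed signal of 1695 to 2642 against 100.7 to 148.2 in the control group. Among markers of liver zones, 4 of 10 pericentral and 4 of 8 periportal genes were lower at 6 h, and 1 of each list was higher. Of the other cell types, 7 of 9 stellate cell markers, 3 of 9 Kupffer cell markers and 4 of 9 sinusoidal endothelial markers were lower at 6 h, and 0, 1 and 2 of them were higher. T cell markers were higher in 3 of 7, cholangiocyte markers in 1 of 5 and erythroid markers in 0 of 3, with none lower. For comparison, 12.7% of all genes were called lower at 6 h and 15.4% higher. No listed marker was at the floor on all arrays. In whole liver, fewer cells of a type and less RNA per cell cannot be told apart, and the part of these marker shifts in the results below was not tested.

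The member genes were mostly well measured. By mean log2 signal 35 of the 44 lay above the median of all genes, 10 were at the floor on at least 1 array, and 0 were at the floor on all 12.

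At 1 h no member was called. The counts were 0 higher and 0 lower by limma, where 1.5% of all genes were called higher and 0.148% lower, and at an unadjusted p under 0.05 there were 3 higher and 0 lower members. How many of all genes passed that unadjusted cut was not counted. The median log2 change of the members was 0.03.

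At 3 h the families had moved little beyond the median change of all genes, the cause of which was not tested. Sult1a1 was higher, and Ugt2b34 and Sult2a8 were lower, which is 1 and 2 of 44, against 5.15% of all genes called higher and 14.7% called lower. The median log2 change of the members was -0.24, next to -0.21 for all genes. After quantile normalization the same 2 falls were called, and after median scaling 0 were, with medians of -0.14 and 0.00 for the members.

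At 6 h genes of all 3 families had fallen. Of the 44 genes 18 were lower, which is 40.9%, against 12.7% of all genes, and 1 was higher, Sult1a1, against 15.4% of all genes. The median log2 change was -0.61 for the members and 0.02 for all genes. Quantile normalization gave 24 lower members and median scaling 26, and both held the same 18 genes. The share of all genes called lower was not counted after these scalings. The median log2 changes after them were -0.69 and -0.73 for the members, against -0.03 and -0.05 for all genes.

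The fall was called in 8 of 11 Ugt genes (72.7%), in 6 of 20 Gst genes (30%) and in 4 of 13 Sult genes (30.8%). The Gst count depended on the scaling, with 12 of 20 (60%) after quantile normalization and 14 of 20 (70%) after median scaling, while the Ugt and Sult counts stayed at 8 and 4. No share of all genes was counted beside these rescaled values. The difference between the families was not tested. On all 3 arrays at 6 h the signal lay below all 3 control arrays for 26 members, the called 18 included, and this held for 18.5% of all genes. Over the whole time course the F test called 20 members, 8 Ugt, 7 Gst and 5 Sult genes, against 38% of all genes.

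**Figure D1:**
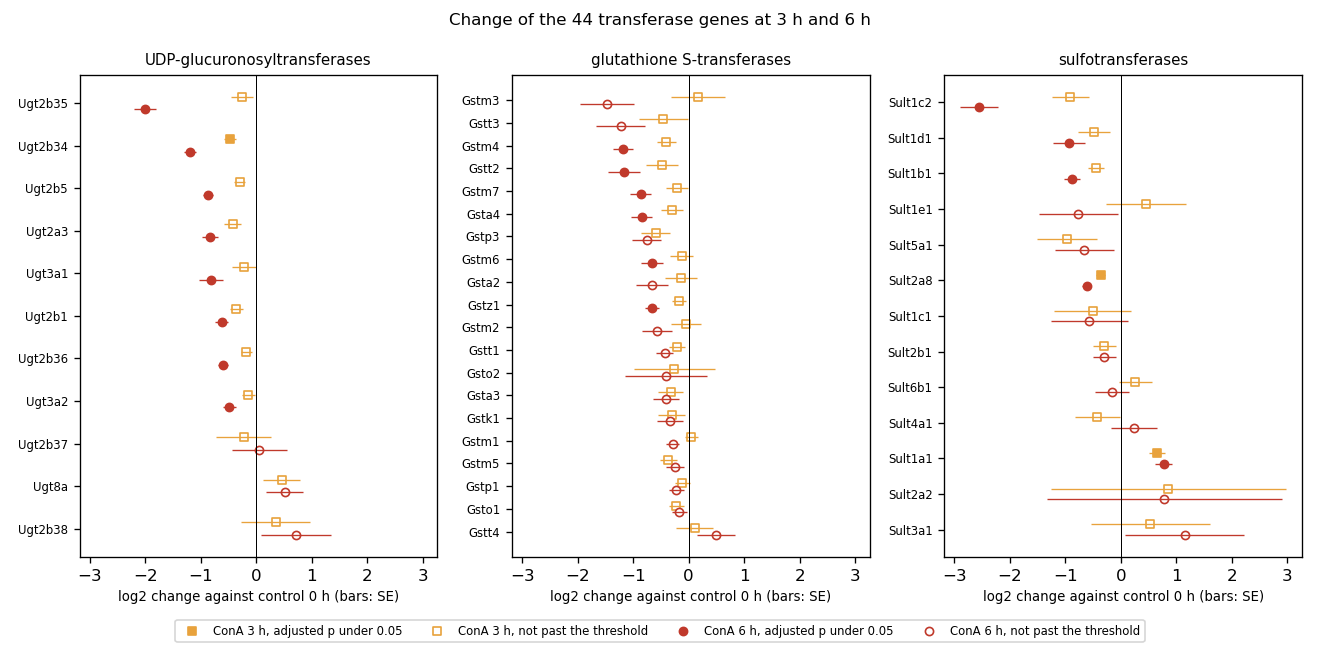
Log2 change of each of the 44 genes at 3 h (squares) and 6 h (circles) against the control group at 0 h, in panels by family, with bars for the SE and filled symbols for an adjusted p under 0.05. At 6 h 18 filled circles lie left of 0 and 1, Sult1a1, lies right of it, whereas at 3 h only 3 squares are filled.

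Much of the fall came after 3 h. In the signal as deposited, all 18 genes had their lowest mean at 6 h and a mean that declined in order over the 3 groups given ConA. After median scaling the step from 1 h to 3 h was not a decline in all of them. Ugt2b36, for 1, then lay higher at 3 h than at 1 h by 0.22 on the log2 scale (limma adjusted p = 0.29). At 3 h the 18 genes had reached a median of 35% of the 6 h log2 change as deposited, with a range of 13.1 to 59.9%, and after quantile normalization a median of 22.3%. The 18 were picked for low values at 6 h. A lowest mean there and a partial change at 3 h follow in part from that choice. Against the 1 h group, 3 members were lower at 3 h and 0 were higher, where 19.9% of all genes were called lower and 3.08% higher. Neither quantile normalization nor median scaling left any of these 3 calls. Against the 3 h group, 9 members were lower at 6 h and 0 were higher, where 3.83% of all genes were called lower and 18.8% higher. By limma at an unadjusted p under 0.05 these counts were 13 lower and 0 higher for 3 h against 1 h, and 18 lower and 0 higher for 6 h against 3 h. How many of all genes passed that unadjusted cut was not counted, so these counts have no background beside them.

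The array of ConA 6 h replicate 3 carried the lowest 6 h signal in 16 of the 18 genes that fell, which is 88.9%, and in 57.7% of all genes lower at 6 h. Without it 15 members were lower at 6 h, all of them among the 18.

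Among the Ugt genes, the Ugt2b subfamily makes glucuronides of steroids, bile acids and drugs in mouse liver. Of its 7 measured genes 5 fell at 6 h. Probe sets of near copies in this subfamily can share signal, so the 5 falls may not be separate results. The identity of their transcripts was not compared. Ugt2b35 fell furthest. Its signal was 2314, 2332 and 2171 (0 h), 2694, 1984 and 2292 (1 h), 1801, 1858 and 2024 (3 h) and 770.9, 553.5 and 419 (6 h). The 6 h arrays lay far below all others, while the 3 h arrays sat just under the control arrays, with a 3 h log2 change of -0.02 after median scaling. The log2 change at 6 h was -2.01 (SE 0.20, limma adjusted p = 1e-04), a 4.03-fold lower signal, and most of it arose between 3 h and 6 h, with -1.75 (SE 0.20, adjusted p = 0.00085).

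Ugt2b34 was the only Ugt gene already called at 3 h. Its signal was 3313, 3088 and 3275 (0 h), 3511, 3008 and 3295 (1 h), 2567, 2186 and 2218 (3 h) and 1607, 1411 and 1232 (6 h). No array at 3 h reached an array at 0 h or 1 h, and no array at 6 h reached one at 3 h. Its log2 change was -0.48 at 3 h (SE 0.12, limma adjusted p = 0.019) and -1.19 at 6 h (SE 0.12, adjusted p = 8.7e-05). The 3 h value was -0.23 after median scaling (adjusted p = 0.31), which ends that call. A second Ugt2b34 probe set fell as well, by 1.32 on the log2 scale at 6 h.

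Ugt2b5 had signals of 5915, 5342 and 5523 (0 h), 5941, 5140 and 5766 (1 h), 4639, 4624 and 4366 (3 h) and 3373, 3008 and 2796 (6 h). The arrays of 0 h and 1 h overlapped, and those of 3 h and 6 h formed separate lower steps. At 6 h the log2 change was -0.87 (SE 0.10, limma adjusted p = 0.00017), against -0.30 at 3 h (adjusted p = 0.055). After median scaling the 3 h change was -0.05 (adjusted p = 0.84). Ugt2b1 and Ugt2b36 fell by 0.62 and 0.60 on the log2 scale at 6 h, with adjusted p = 0.0034 and 0.0013.

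The other Ugt2b genes, Ugt2b37 and Ugt2b38, were not called. Ugt2b37 had 54.3, 54.6 and 49.3 at 6 h, against 72.6, 33.3 and 54.1 in the control group. Ugt2b38 had 133.8, 145.5 and 264.2 at 6 h, against 106.7, 53.2 and 206.5 in the control group, and both pairs of groups overlapped.

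Outside Ugt2b, Ugt2a3, whose human counterpart conjugates bile acids, had signals of 912.8, 1072 and 831.9 at 6 h, against 1630, 1888 and 1512 in the control group, with no overlap and a log2 change of -0.84 (SE 0.15, limma adjusted p = 0.0025). Both Ugt3a genes, which use other UDP-sugars than UDP-glucuronate, fell, Ugt3a1 by 0.82 (adjusted p = 0.017) and Ugt3a2 by 0.49 (adjusted p = 0.01) on the log2 scale. Ugt8a, the galactosyltransferase that makes the lipid galactosylceramide of myelin, was near the floor, with signals of 4.12 to 6.4 at 6 h. The Ugt1a locus, whose isoforms share their last exons, is covered by 3 probe sets with 8 symbols each and so was no member. Those probe sets had log2 changes of -0.28, -0.17 and -0.26 at 6 h, with adjusted p = 0.058, 0.15 and 0.13 over all probe sets. A probe set shared by Ugt2a1 and Ugt2a2 was lower at 6 h, by 1.88 on the log2 scale (adjusted p = 0.0074), from low signals of 11.2 to 24.4 in the control group.

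**Figure D2:**
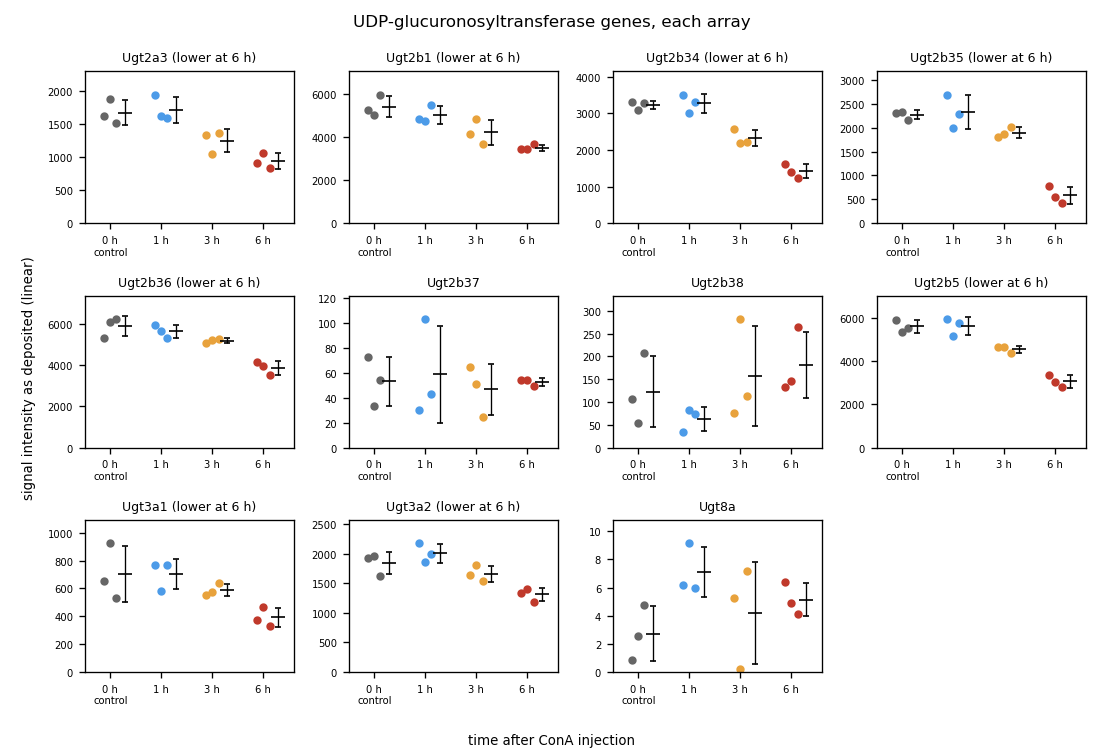
Signal intensity (linear, as deposited) of the 11 Ugt genes on each array at 0 h, 1 h, 3 h and 6 h, with the mean and SD (n = 3) as a black bar beside the points. In the 8 genes lower at 6 h every 6 h point lies under every control point, and the Ugt2b35 points lie between 419 and 770.9 at 6 h, under all its other points.

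The Ugt2b genes lie together on chromosome 5, and the sequence before the start site is shown for 4 of the 5 that fell. The 4 were picked for a large fall or for a match to the letters below. Ugt2b1 is not shown, and its match opens at base -4. RefSeq (build GRCm38.p6) gave windows of 300 bases, 250 before and 50 after the start, for 39 of the 44 members (50 windows). The letters TTGCNNAA, a form of the site bound by the C/EBP factors, were searched on both strands. They occurred in 10.8% of all 32851 windows, in 10 of 50 member windows and in 4 of 10 Ugt windows, those of Ugt2a3, Ugt2b1, Ugt2b5 and Ugt2b36. The 100 bases before the start follow, 5′ to 3′, with matched letters in capitals. The windows lie at chr5:87000760-87000859 (plus strand) for Ugt2b35, chr5:86906938-86907037 (minus) for Ugt2b34, chr5:87140341-87140440 (minus) for Ugt2b5 and chr5:87092556-87092655 (minus) for Ugt2b36.
Ugt2b35: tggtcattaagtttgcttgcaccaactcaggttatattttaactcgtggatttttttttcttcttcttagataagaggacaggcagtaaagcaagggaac
Ugt2b34: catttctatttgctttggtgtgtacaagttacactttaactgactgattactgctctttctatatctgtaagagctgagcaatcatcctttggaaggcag
Ugt2b5: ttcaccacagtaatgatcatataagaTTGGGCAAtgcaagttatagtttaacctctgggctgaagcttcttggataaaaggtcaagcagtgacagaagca
Ugt2b36: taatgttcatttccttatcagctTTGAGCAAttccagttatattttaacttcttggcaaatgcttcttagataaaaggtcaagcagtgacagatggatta
The capitals mark the match on the opposite strand. Ugt2b5 and Ugt2b36 share it, while Ugt2b35 and Ugt2b34 do not hold these letters in their windows. Ugt2b37 and Ugt2b38 have windows 76.5 and 84.2% identical to that of Ugt2b5 in a global alignment and do not hold the letters either. Any link between the letters and the change of a gene was not tested. A match describes letters and is no binding site, and its absence says nothing of the factor. The letters GTTAATNA, a part of the site of HNF1 factors, were in 2.54% of all windows and in 2 member windows, those of Sult1a1 and Sult1d1.

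Among the Gst genes, 19 of 20 had a log2 change below 0 at 6 h, with a median of -0.61, and 6 were called lower. The mu class was the largest, with 3 of 7 genes lower. Gstm4, a mu class enzyme, had signals of 560.8, 745.2 and 618.3 (0 h), 817.2, 612.6 and 658.2 (1 h), 474.7, 453.8 and 522 (3 h) and 319.2, 313.7 and 218.4 (6 h). The arrays of 3 h already lay below the control arrays and those of 6 h below both. Its log2 change was -0.40 at 3 h (SE 0.18, limma adjusted p = 0.15) and -1.19 at 6 h (SE 0.18, adjusted p = 0.00098). After median scaling the 3 h change was -0.15 (adjusted p = 0.62).

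Gstt2, a theta class enzyme, had signals of 822.7, 863.7 and 705.5 (0 h), 997.3, 632.7 and 677.9 (1 h), 643.1, 427.5 and 669.3 (3 h) and 453.2, 423.8 and 232.9 (6 h). Its arrays were close together at 0 h and more spread at the later times, and no 6 h array reached a control array. The log2 change at 6 h was -1.16 (SE 0.29, limma adjusted p = 0.014).

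Gstm7 had signals of 554.3, 578.6 and 442.8 (0 h), 772.3, 543.4 and 486 (1 h), 435.3, 436.5 and 485.8 (3 h) and 296.6, 334.8 and 236.6 (6 h). The 6 h arrays were below all the others, and its log2 change at 6 h was -0.87 (SE 0.19, limma adjusted p = 0.0085). A second, dim probe set for Gstm7 did not pass the test (log2 change -0.33, adjusted p = 0.66 over all probe sets).

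The remaining Gst genes lower at 6 h were Gsta4, Gstm6 and Gstz1. Gsta4, which removes the lipid peroxidation product hydroxynonenal, had 799.5, 819.6 and 625.1 at 6 h, against 1259, 1489 and 1276 in the control group (log2 change -0.85, SE 0.20, limma adjusted p = 0.0098). Gstz1, the maleylacetoacetate isomerase of tyrosine breakdown, had 1460, 1495 and 1160 at 6 h, against 2270, 2148 and 2025 in the control group (log2 change -0.65, SE 0.13, limma adjusted p = 0.0038). Neither gene had an array that overlapped the control group at 6 h. Gstm6 had a log2 change of -0.66 (adjusted p = 0.037), a call that 9 of the 22 other settings of the calculation ended.

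Several Gst genes just missed the threshold at 6 h. Gstm3 had 716.9, 1116 and 701.6 (0 h), 1897, 581.3 and 966.6 (1 h), 915.4, 615.7 and 1423 (3 h) and 327.6, 437 and 183.3 (6 h). It was lower at 6 h than at 3 h (log2 change -1.64, SE 0.49, limma adjusted p = 0.039), a call that 10 of the 22 other settings ended, and against the control group the change of -1.47 had an adjusted p = 0.051. Gstp3, Gstt1 and Gstt3 had changes of -0.75, -0.43 and -1.23 with adjusted p = 0.057, 0.06 and 0.069. These 4 genes were called lower after quantile normalization and after median scaling.

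Other Gst genes moved less, depended on the scaling or were discordant. Gstp1, the pi class enzyme, had 7110, 6812 and 7310 at 6 h, against 7930, 7581 and 9399 in the control group (log2 change -0.22, SE 0.14, limma adjusted p = 0.29). Gstm1 had a change of -0.29 (adjusted p = 0.11) and its 4 probe sets ranged from -0.42 to -0.17, with none called. It was called lower after quantile normalization (-0.41, adjusted p = 0.0057) and after median scaling (-0.42, adjusted p = 0.0093). For Gsta3, an alpha class enzyme, the probe set used had a change of -0.41 (adjusted p = 0.28 over all probe sets), while the other, with signals of 810.7, 858.3 and 443.9 at 6 h against 1654, 1531 and 1471 in the control group, was lower by 1.20 (adjusted p = 0.023). A probe set shared by Gsta1, Gsta2 and Gm3776 had a change of -0.66 (adjusted p = 0.24). Near-identical copies in the alpha and mu classes, and also among the Ugt2b and Sult2a genes, can share signal on these arrays, so single genes there are uncertain.

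The letters TGACNNNGC, the core of the antioxidant response element through which the factor Nrf2 acts on many Gst genes, were searched on both strands and were in 12.4% of all windows, in 3 of 26 Gst windows and in 0 of 10 Ugt and 0 of 14 Sult windows. The 3 stretches are given 5′ to 3′ with the letters in capitals, at chr1:21240448-21240487 (plus strand) for Gsta3, chr3:107895796-107895835 (plus) for Gstm5 and chr3:107931720-107931759 (minus) for Gstm7. They are shown because only Gstm7 of these genes was called lower at 6 h, from the probe sets used and the signal as deposited. The other Gsta3 probe set was lower, and Gstm5 was called lower after median scaling (-0.39, limma adjusted p = 0.047). For Gstm7 the letters are in its window 2 and not in its window 1.
Gsta3: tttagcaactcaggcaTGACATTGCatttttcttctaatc
Gstm5: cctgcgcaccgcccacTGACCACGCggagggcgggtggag
Gstm7: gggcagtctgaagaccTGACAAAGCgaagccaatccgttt
Gstm5 had 280.2, 334.1 and 297.3 at 6 h, against 306.2, 442.5 and 346.5 in the control group (log2 change -0.25, SE 0.16, limma adjusted p = 0.3). The letters GCGTG, the core of the xenobiotic response element bound by the aryl hydrocarbon receptor, were in 32.4% of all windows and in 11 of 50 member windows.

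**Figure D3:**
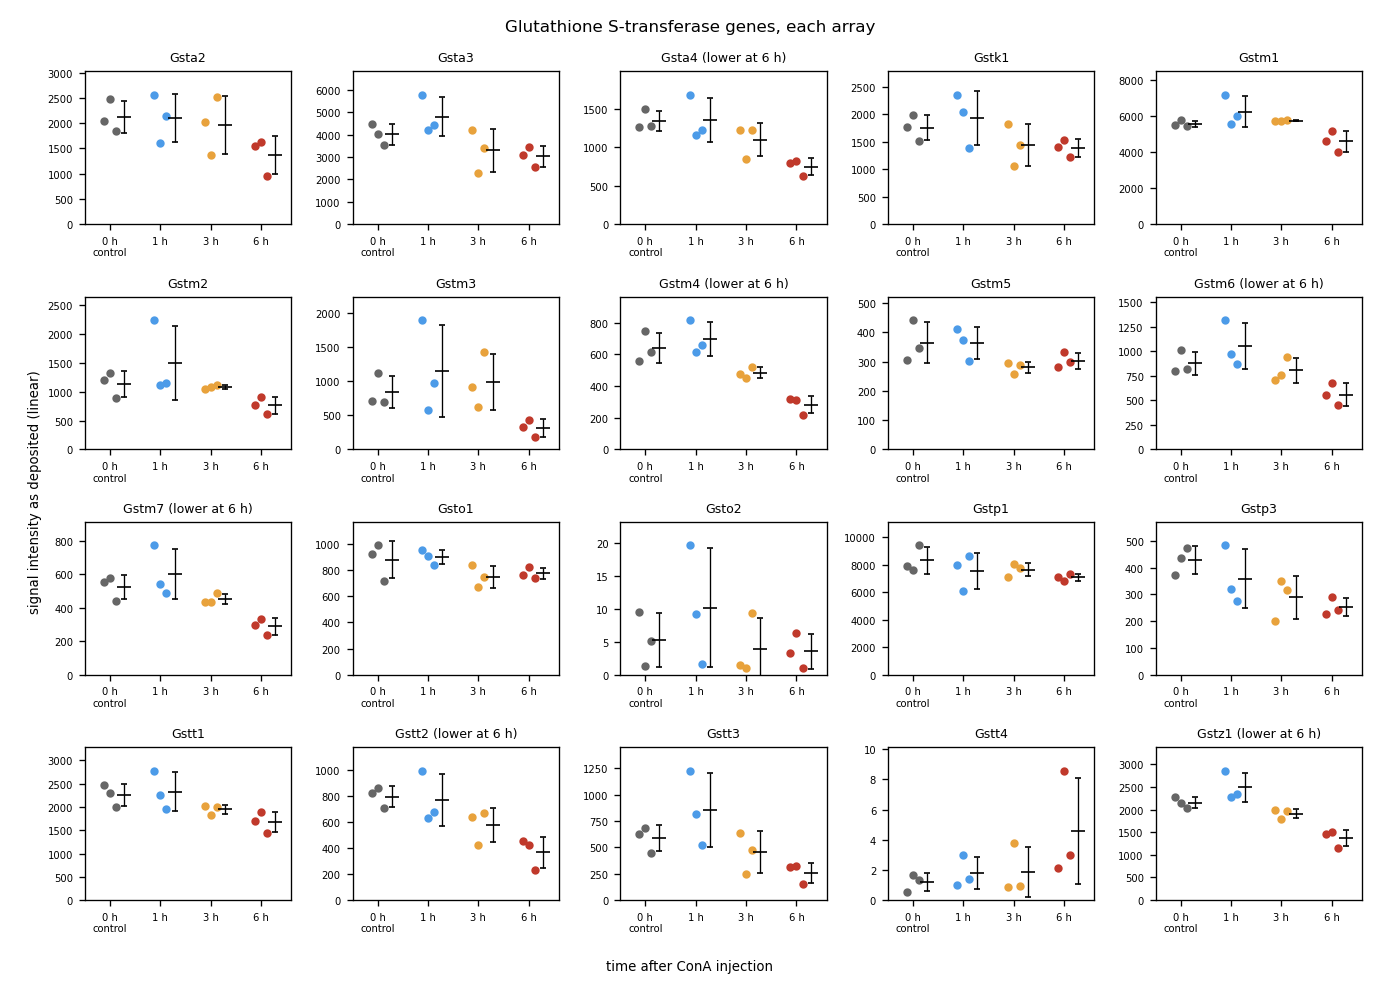
Signal intensity (linear, as deposited) of the 20 Gst genes on each array at 0 h, 1 h, 3 h and 6 h, with the mean and SD (n = 3) as a black bar beside the points. Gstm4, Gstt2, Gstm7, Gsta4, Gstm6 and Gstz1 have every 6 h point under every control point, and Gstm3 shows wide spread at 1 h and 3 h before its low 6 h arrays.

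Among the Sult genes, both directions were present. Sult1c2 showed the largest fall of all 44 genes. Its signal was 91.6, 125.8 and 110.2 (0 h), 105.3, 100.7 and 106.2 (1 h), 55.7, 45.6 and 74.8 (3 h) and 20.5, 29.4 and 10.4 (6 h). From 3 h on no array overlapped the control arrays, and the 6 h arrays lay below those at 3 h. The log2 change at 6 h was -2.55 (SE 0.34, limma adjusted p = 0.00048), 5.88-fold lower, and at 3 h it was -0.91 (adjusted p = 0.09).

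Sult1a1, the phenol sulfotransferase, was the only member called higher. Its signal was 3710, 3274 and 2897 (0 h), 5496, 4334 and 4561 (1 h), 5724, 4677 and 5059 (3 h) and 6071, 6127 and 4667 (6 h). Every array after ConA injection lay above all control arrays. The log2 change was 0.54 at 1 h (SE 0.15, limma adjusted p = 0.16), then 0.65 at 3 h (SE 0.15, adjusted p = 0.016) and 0.77 at 6 h (SE 0.15, adjusted p = 0.0044). The 3 h call was lost without control replicate 3 or without ConA 3 h replicate 1, whereas the 6 h call held in all 22 other settings.

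Sult2a8, which sulfates bile acids and other hydroxysteroids in mouse liver, changed by small but even steps. Its signal was 5512, 6072 and 5668 (0 h), 5206, 5085 and 5407 (1 h), 4092, 4627 and 4660 (3 h) and 3676, 3905 and 3684 (6 h). No array after ConA injection reached a control array. The log2 change was -0.37 at 3 h (SE 0.08, limma adjusted p = 0.012) and -0.61 at 6 h (SE 0.08, adjusted p = 0.00046), but after median scaling the 3 h value was -0.12 (adjusted p = 0.49).

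Sult1b1, which sulfates thyroid hormones, had signals of 197, 264.3 and 265 (0 h), 224.3, 227.7 and 217.2 (1 h), 161.9, 172.6 and 192.1 (3 h) and 144.7, 135.2 and 112.3 (6 h). The 6 h arrays were below all others, with a log2 change of -0.88 (SE 0.14, limma adjusted p = 0.0014).

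Sult1d1, which sulfates catecholamines in mice, had 1974, 1618 and 1036 (0 h), 2269, 1857 and 2018 (1 h), 1349, 764.7 and 1183 (3 h) and 833.8, 955.5 and 599.3 (6 h). The control arrays were spread out, and the lowest of them was near the highest at 6 h. The log2 change at 6 h was -0.93 (SE 0.29, limma adjusted p = 0.038), and 9 of the 22 other settings ended this call. A second Sult1d1 probe set was lower by 1.11 (adjusted p = 0.025 over all probe sets).

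Sult2a2 and Sult3a1, a hydroxysteroid and an amine sulfotransferase of the mouse, were high on a few single arrays. Sult2a2 had 26.4, 18.8 and 0.22 (0 h), 1151, 1600 and 16.3 (1 h), 406.4, 1.08 and 7.23 (3 h) and 30.1, 18.1 and 14.1 (6 h). Sult3a1 had 6.77, 8.59 and 2.41 (0 h), 97.4, 125.9 and 10.9 (1 h), 29.6, 3.81 and 4.73 (3 h) and 13.5, 22.3 and 6.37 (6 h). Both were highest on ConA 1 h replicates 1 and 2 and on ConA 3 h replicate 1. Neither passed the test at 1 h, with log2 changes of 4.76 (SE 2.11, limma adjusted p = 0.45) and 3.19 (SE 1.07, adjusted p = 0.27).

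The remaining Sult genes, among them the estrogen sulfotransferase Sult1e1 and the cholesterol sulfotransferase Sult2b1, were dim or uneven. Sult1c1, Sult1e1, Sult2b1, Sult4a1 and Sult6b1 were at the floor on 4 to 11 arrays each, and Sult5a1 had 49.2, 38.8 and 50.9 at 6 h, against 67.5, 48.2 and 117.7 in the control group. Of all members, 9 lay under the median of all genes and 0 of these were called at any time against 0 h by limma.

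**Figure D4:**
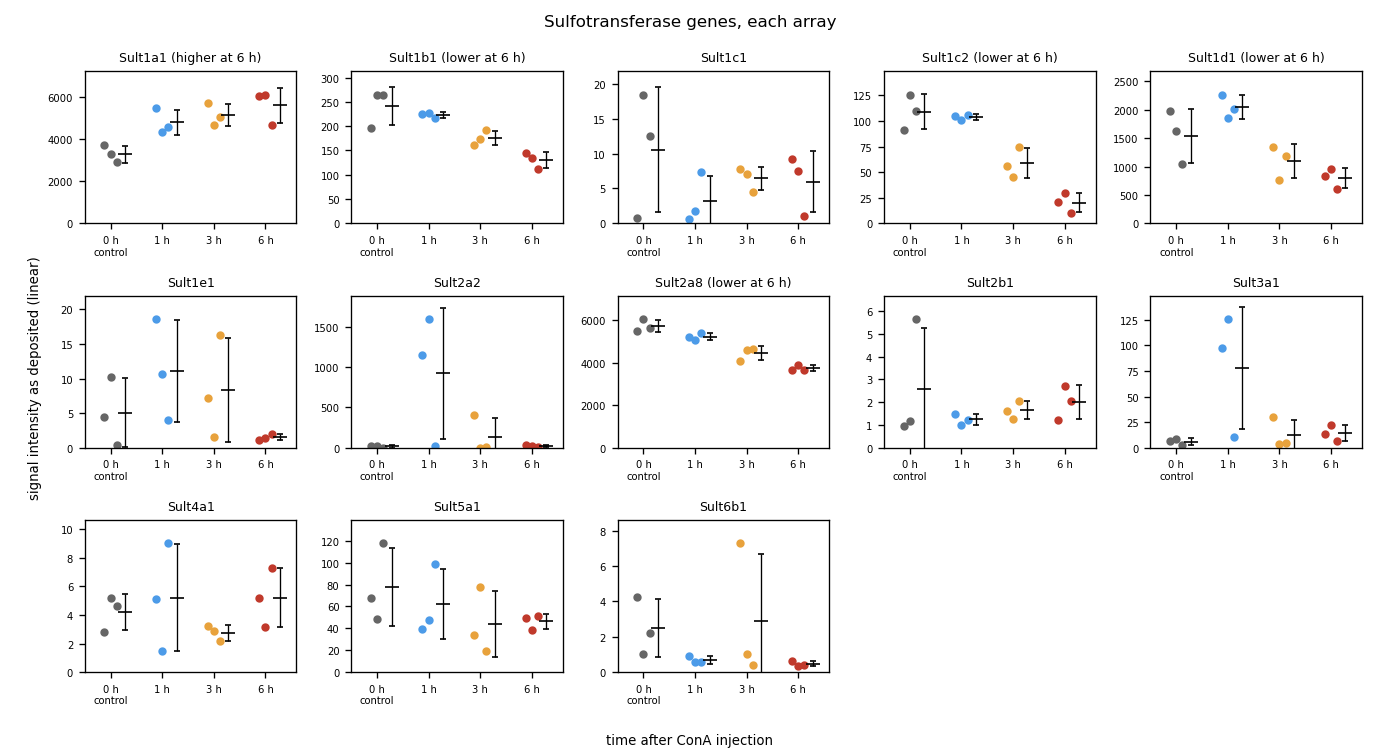
Signal intensity (linear, as deposited) of the 13 Sult genes on each array at 0 h, 1 h, 3 h and 6 h, with the mean and SD (n = 3) as a black bar beside the points. Sult1c2, Sult1b1, Sult1d1 and Sult2a8 are lower and Sult1a1 is higher at 6 h, and Sult2a2 and Sult3a1 are high on 2 arrays at 1 h and on 1 at 3 h.

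The pattern of Sult1c2 over the 12 arrays was most like that of Klb, a co-receptor for fibroblast growth factors (Pearson's r 0.981), followed by Aldh1b1, Aldh8a1, Smim27 and Stxbp6 (r from 0.979 to 0.977). Sult3a1 had the highest log2 change of the members at 6 h but was not called (1.14, SE 1.07, limma adjusted p = 0.5). Its nearest gene was Sult2a2 (r 0.951), before Nipal1, Mrps34, Ndufa2 and Klf7 (r from 0.897 to 0.886). These correlations describe arrays that share the 4 time groups. Sult3a1 and Sult2a2 were also both highest on ConA 1 h replicates 1 and 2 and on ConA 3 h replicate 1.

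Of the genes for the co-substrates, some were lower at 6 h, where 12.7% of all genes were called lower and 15.4% higher. Of 6 genes listed for UDP-glucuronate supply 4 were lower and 0 higher, with a median log2 change of -0.69 (0.02 for all genes). Of 17 listed for glutathione supply 6 were lower and 2 higher, with a median of -0.21. Of 8 for supply and removal of the sulfate donor 4 were lower and 2 higher, with a median of -0.28. The UDP-glucuronate and glutathione lists also hold genes of use or breakdown, such as Gulo, Chac1 and Chac2. Their counts are therefore not of supply alone. Ugp2, which makes UDP-glucose, had 1488, 1426 and 1276 at 6 h, against 2870, 3185 and 2832 in the control group (log2 change -1.09, SE 0.13, limma adjusted p = 0.00032). Ugdh, which oxidizes UDP-glucose to UDP-glucuronate, had a change of -0.35 (adjusted p = 0.15). Slc35d2, a carrier of nucleotide sugars, Gulo, the last enzyme of vitamin C synthesis from glucuronate, and Pgm1, the phosphoglucomutase, fell by 0.98, 0.80 and 0.58 on the log2 scale.

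Gclc, the catalytic subunit of the rate-limiting enzyme of glutathione synthesis, had 719.4, 888.9 and 703.8 at 6 h, against 2112, 1994 and 1895 in the control group (log2 change -1.38, SE 0.11, limma adjusted p = 2.3e-05). Chac2, which degrades glutathione, fell by 2.10, and Cth, which makes cysteine, by 1.45 on the log2 scale, while Chac1, of the same activity as Chac2, was higher by 1.71 (adjusted p = 0.00031). Papss2, which makes the sulfate donor PAPS, had 657.6, 633.3 and 448.3 at 6 h, against 1457, 1657 and 1104 in the control group (log2 change -1.28, SE 0.27, limma adjusted p = 0.0058). Slc26a1, a sulfate transporter, and Suox, which makes sulfate from sulfite, fell by 1.12 and 0.86 on the log2 scale. Slc26a2, another sulfate transporter, went both ways, with 36.5, 41.2 and 39.8 (0 h), 13.5, 13.1 and 9.15 (3 h) and 79.1, 75.1 and 68.7 (6 h), a log2 change of -1.74 at 3 h (limma adjusted p = 0.00039) and of 0.92 at 6 h (adjusted p = 0.0063).

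Other conjugation enzymes outside the rule were mixed, with 7 of 18 lower and 2 higher at 6 h, against 12.7% and 15.4% of all genes. Glyat, which conjugates glycine, fell by 1.03, Hnmt, which methylates histamine, by 0.98, and the acetyltransferase Nat8 by 1.32 on the log2 scale. Nat1, another acetyltransferase, had signals of 0.767, 1.76 and 1.33 at 6 h, all under the floor, against 16.2, 5.04 and 16.7 in the control group, so that its log2 change of -1.86 (limma adjusted p = 0.032) reflects the floor and not a measured 6 h level. Nnmt, which methylates nicotinamide, was higher by 1.46 (limma adjusted p = 0.0017), and Baat, which joins bile acids to glycine or taurine, by 0.86 (adjusted p = 0.00062). Of 9 transporters listed for efflux of conjugates 5 were lower and 1 higher, next to the same shares of all genes. The list also holds exporters not chiefly known for conjugates, such as Abcb1a and Abcc6, so its count is not of conjugate efflux alone. Abcc2, the canalicular exporter of glucuronides and glutathione conjugates, had 322.5, 322.6 and 179.7 at 6 h, against 669.4, 609.9 and 614.7 in the control group (log2 change -1.25, SE 0.22, limma adjusted p = 0.0022). Abcb1a and Abcc6 fell by 1.98 and 1.23, and Abcc1, an exporter of many cell types, was higher by 2.08 (adjusted p = 0.0021). Of 4 genes that cleave glucuronides or related esters 2 were lower, the carboxylesterases Ces1d and Ces1f, by 1.16 and 1.15.

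Among 26 regulators of phase II genes 8 were lower and 8 higher at 6 h, against 12.7% and 15.4% of all genes. Nr1i3, the constitutive androstane receptor, had 185.8, 136.3 and 121.4 at 6 h, against 703.6, 848.4 and 579.5 in the control group (log2 change -2.27, SE 0.19, limma adjusted p = 4e-05). Ppara, the receptor for fatty acids, had log2 changes of -2.63 at 3 h and -1.70 at 6 h, both called. Nr1i2, the pregnane X receptor, fell by 1.11 at 3 h and by 0.66 at 6 h. Cebpd, a C/EBP factor of the acute phase, was called at all times, with 500.1, 835.3 and 874.4 at 6 h, against 80.1, 61.8 and 65.7 in the control group, and log2 changes of 2.93 (1 h), 3.04 (3 h) and 3.38 (6 h), with limma adjusted p = 8.7e-05, 2.1e-05 and 7.1e-06. Cebpb was higher by 1.07 already at 1 h and by 1.09 at 6 h, and Cebpa was lower by 0.88 at 6 h. Mafk, a small Maf protein, was higher by 1.82 and Mafg lower by 1.07. Nfe2l2, which encodes Nrf2, had a change of -0.25 (adjusted p = 0.24).

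**Figure D5:**
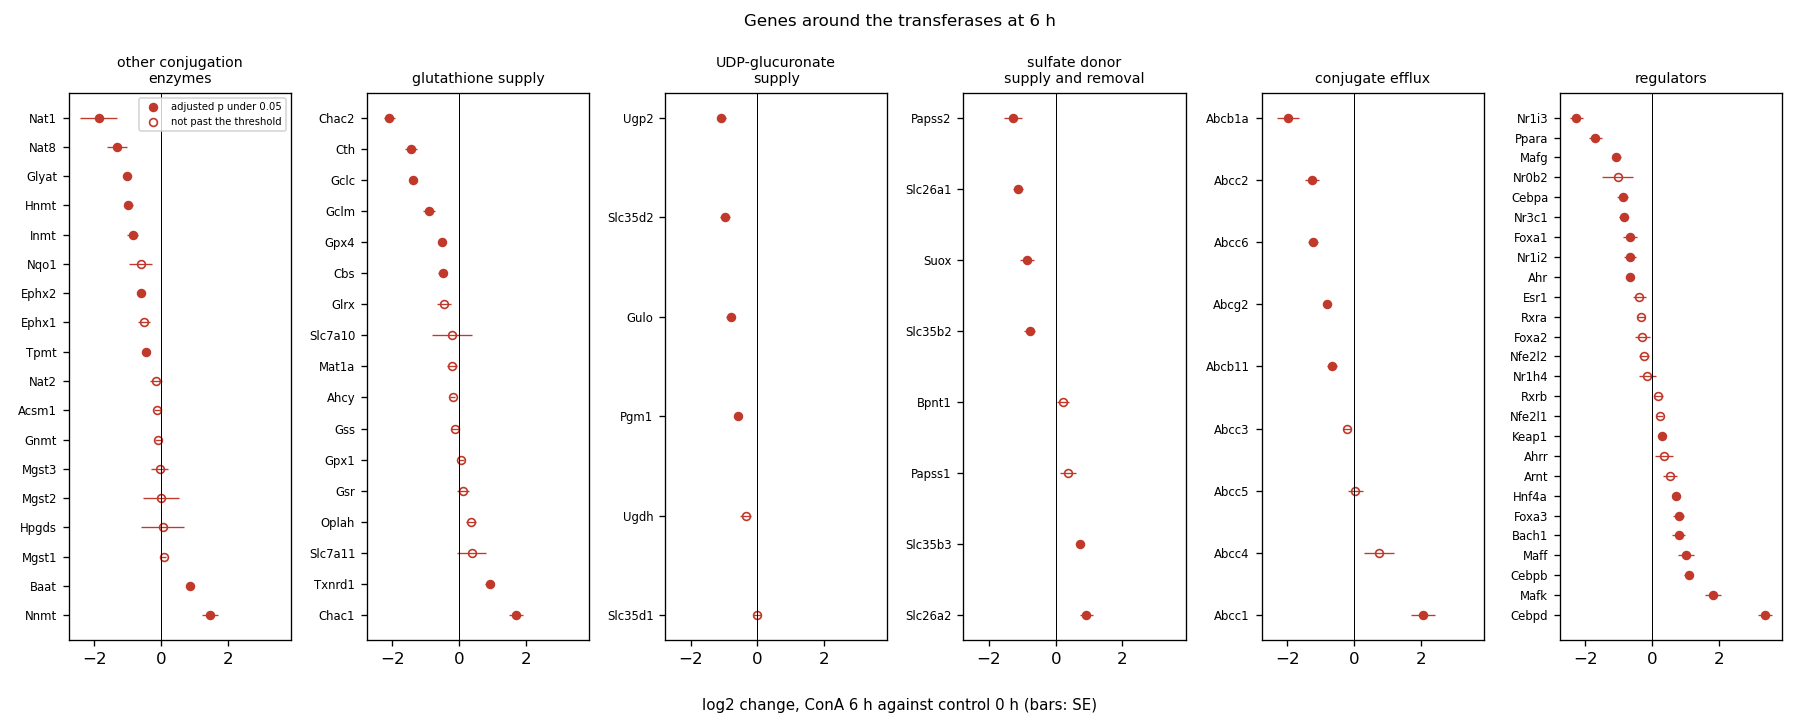
Log2 change at 6 h against the control group for the measured genes of 6 lists around the transferases, with bars for the SE and filled points for an adjusted p under 0.05. Nr1i3 at -2.27 and Chac2 at -2.10 lie farthest left, and Cebpd at 3.38 lies farthest right.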

How the data were processed

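RNA from whole mouse liver was hybridised to 12 Affymetrix arrays, 3 per group. The deposited table holds linear signal intensity values per probe set. Per the labels the authors used MAS5 (version 5.0), while the methods name RMA; the values are linear and differ in distribution between arrays, and no new scaling was applied. The build behind the probe sets is not given in the sources used here. Of 45101 probe sets, 64 controls were left out. Platform annotation gave 34945 probe sets 1 symbol, 932 several and 9160 none, and 34741 symbols were updated through Entrez. Before log2, values below 3.04, its 20th percentile, were raised to that floor. Group means were fitted in limma (version 3.58.1, R 4.3.3) with Benjamini-Hochberg adjustment over 18193 genes, each read from its probe set of highest mean. The script was tested on simulated data with changes at 6 h placed in bright genes only. It recovered 79% of log2 changes of 1 and 96% of changes of 2. Smaller changes, such as those of many members, were not simulated. The members and gene lists were chosen with earlier results of these data known. Named with array values were, per family and time, the 3 largest rises and falls past the threshold, and from each list up to 4. Members near the threshold, with discordant probe sets, or high on single arrays were added after their values had been seen. Alternatives were other scalings, floors, filters, an intensity trend, a replicate block, other probe set rules and leaving out each array. Promoter windows came from RefSeq (GRCm38.p6).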

Additional observations from a re-analysis of the deposited data

Results flagged for a closer look

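Changes between successive time points differed from 0 for 12 results by limma, and these are given as values with no explanation. At 3 h against 1 h the log2 differences were -0.93 for Sult1d1 (adjusted p = 0.045), -0.49 for Ugt2b34 (adjusted p = 0.016) and -0.30 for Ugt2b5 (adjusted p = 0.048). At 6 h against 3 h they were -1.75 for Ugt2b35, -0.72 for Ugt2b34, -0.57 for Ugt2b5 and -0.42 for Ugt2b36 among the Ugt genes, with adjusted p between 0.00085 and 0.012. Among the Gst genes they were -1.64 for Gstm3, -0.79 for Gstm4, -0.66 for Gstm7 and -0.49 for Gstz1, with adjusted p between 0.012 and 0.039. For Sult1c2 the difference was -1.64 (adjusted p = 0.0082).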

How the results depend on the processing

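At 6 h the count of lower members, 18, ran from 16 to 26 over the other settings and from 15 to 22 when single arrays were left out, and the 1 higher member stayed at 1. Of the 18, Gstm6 and Sult1d1 lost the call in 9 of 22 settings each, Ugt3a1 in 3 and Gstm7 in 1, while the other 14 and Sult1a1 kept it in all 22. The replicate numbers did not pair the arrays (same-number correlations of deviations -0.0054 to 0.041), and the fit with a replicate block called 19 lower at 6 h and 5 lower at 3 h against 1 h. The remaining counts moved with the setting, and the cause was not tested. Shares of all genes called were not counted under the other settings. At 3 h against control, 2 lower became 0 with median scaling, 5 with a floor at the 40th percentile, 6 over genes above the median signal and 5 with an intensity trend. At 3 h against 1 h, 3 lower became 0 with quantile normalization or median scaling, 1 with a pseudocount of 1 or over all probe sets, 5 with the higher floor, 8 above the median signal and 7 with the trend. Under median scaling Ugt2b5 at 3 h against 1 h turned to 0.036 (adjusted p = 0.92). At 6 h against 3 h, 9 lower became 20 with quantile normalization, 23 with median scaling and 17 above the median signal. Leaving out single arrays gave 0 to 1 higher and 1 to 4 lower at 3 h, 0 to 6 lower at 3 h against 1 h, 6 to 10 lower at 6 h against 3 h, and 15 to 21 by the F test. The lowest were without ConA 3 h replicate 3 (1 lower at 3 h, 0 at 3 h against 1 h) and without ConA 1 h replicate 1 or ConA 3 h replicate 2 (0 at 3 h against 1 h), with 1 there without control replicate 2, and the highest were without ConA 6 h replicate 3 (4 and 6).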

Other observations

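The arrays on which Sult2a2 and Sult3a1 were high were ConA 1 h replicates 1 and 2 and ConA 3 h replicate 1. They were compared with the other 9 in genes known for sex-biased expression in mouse liver. All of them stood apart in Cyp3a44, and ConA 1 h replicates 1 and 2 also did in Cyp2b9 and Cyp4a12a. These genes were chosen after their values had been seen and were given no test. Cyp3a44, which is female-predominant, had signals of 128.1, 185.6 and 102.9 on these arrays and 5.83 to 53.5 on the other 9. Cyp4a12a, which is male-predominant, had 896.3, 409.8 and 1347 on them and 1257 to 2821 on the other 9, so that the ranges met. Cyp2b9, also female-predominant, had 1878, 1361 and 680.6 against 153.2 to 1124, and Elovl3, which is male-predominant, had 261.9, 522.2 and 224.5 against 130.8 to 1216. In Cyp4a12a and Cyp2b9 only ConA 3 h replicate 1 lay within the range of the other 9. The Elovl3 values all lay within it. The Y-linked gene Eif2s3y was at 209.7 to 495.4 on all 12 arrays, which are labelled male.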
